A study of Mus musculus with 4 samples.

Results

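The growth factor ligands examined here are 10 secreted or cell-surface signalling proteins whose transcripts were read in mouse T helper 17 (Th17) cells. They are the platelet-derived growth factors Pdgfa and Pdgfb, the vascular endothelial growth factors Vegfa, Vegfb and Vegfc, the epidermal growth factor (EGF) family members Hbegf and Areg, the growth factors Fgf2 and Igf1, and the opioid peptide precursor Penk. They were chosen by gene symbol, and all 10 were found among the 50600 genes listed, of which 21764 are protein-coding. The 4 RNA-seq libraries form a single group of primary Th17 cells from C57BL/6NJ mice, numbered as biological replicates 1 to 4, with no second condition. A protocol for differentiating CD4 T cells is linked to the samples. The labels used here name no cytokine, dose or mouse age, and a 48 hour tag in the output name of the counting command is not repeated in them. All 4 libraries carry the same donor label, sex is given as not collected, and the labels name no separate animal or culture for any of them. Hence SDs measure the spread between these samples, whose animals and cultures the labels do not give, and p-values refer to these samples only.

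Growth factors of these families are made by one cell and act on receptors of another, most of them receptor tyrosine kinases. PDGF-B recruits pericytes and fibroblasts through PDGF receptor beta, VEGF proteins act on blood and lymphatic endothelium, and EGF family ligands drive epithelial repair. Th17 cells, a helper subset named for the cytokine IL-17, act at epithelial barriers and in inflamed tissue. Many of these ligands are made as precursors and reach their receptor only after cleavage, PDGF chains by furin-like proteases and HB-EGF by membrane sheddases of the ADAM family.

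Counts assigned to genes summed to 28555677, 36998648, 58104663 and 42896684 in replicates 1 to 4. Levels are given in TPM, the usual length-normalised unit, that is, counts divided by exon length and scaled to the same sum in each library, and a gene counts as detected where all 4 libraries reach 1 TPM. All 8 Th17 genes listed as identity markers, among them Il17a and Il17f, were detected, with means from 31.8 TPM for Il23r to 11569 TPM for Il17f, and so were all 6 T cell genes. The libraries divided by sex-linked genes. Xist, expressed from the inactive X chromosome, had 132, 131, 0.329 and 0.496 TPM across replicates 1 to 4, and the Y-linked Eif2s3y had 0.282, 0.239, 65.5 and 58.4 TPM. These levels differ as between female and male mice, so the shared donor label does not stand for 1 animal, and part of the spread between the libraries is not technical. For 4 of the 9 ligands with counts, Hbegf, Fgf2, Pdgfa and Vegfa, replicates 1 and 2 both lay on one side of replicates 3 and 4, against 37.8% of detected protein-coding genes.

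The coding sequences carry the processing marks of these precursors, and 5 stretches are shown because they bear on the protease levels given further on. They come from GENCODE M21 transcripts on mm10, and capitals mark the codons that a search of the translated sequence found. In the PDGF chains the search was for arginine, any residue, lysine or arginine, then arginine, the motif that furin recognises. It was found at codons 78 to 81 of the 241 codons of Pdgfb-201 and at codons 83 to 86 of the 211 codons of Pdgfa-201. Each PDGF stretch of 42 bases is spliced from 2 exons, so its coordinates span an intron, chr15:80001880-80003358 for Pdgfb and chr5:138986370-138988382 for Pdgfa, both on the minus strand. A second match in Pdgfb lay at codons 214 to 217.
Pdgfb: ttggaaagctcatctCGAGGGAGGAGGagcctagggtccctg
Pdgfa: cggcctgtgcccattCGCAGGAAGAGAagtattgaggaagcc
In Penk-201 (268 codons, minus strand) the capitals mark the 15 bases that encode an enkephalin pentapeptide, the opioid unit that is cut out of the precursor. The transcript held 7 such units, 6 ending in methionine and 1 in leucine. A pair of basic residues preceded each of them, but only 5 also had such a pair directly after. The last unit had none after it. The first, the leucine unit and the last are shown, at chr4:4134319-4134363, chr4:4133926-4133970 and chr4:4133842-4133877. The 7 units were written with 6 different codon strings, the units at codons 100 to 104 and 107 to 111 sharing the same one.
First unit: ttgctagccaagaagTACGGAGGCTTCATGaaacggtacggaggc
Leucine unit: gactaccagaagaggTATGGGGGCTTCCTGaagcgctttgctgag
Last unit: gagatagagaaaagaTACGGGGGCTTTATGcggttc

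Pdgfb was the dominant ligand transcript, 8 other ligands were present at low to moderate levels, and Igf1 had no count. Of the 10 ligands 9 were detected, against 47.0% of protein-coding genes. Their median level was 5.60 TPM, against 0.575 TPM for all protein-coding genes and 31.3 TPM for the detected ones. The ligands were chosen with earlier results of these data known, so these comparisons are descriptions and not tests. The 10 ligands summed to 905.1, 826.3, 842.0 and 787.4 TPM in replicates 1 to 4, and Pdgfb alone made up 89.3% ± 0.46 of that sum (SD, n = 4). The other 9 summed to 93.6, 93.7, 89.9 and 81.7 TPM. A bulk library cannot tell a gene expressed in few cells apart from one with little RNA in each cell.

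**Figure D1:**
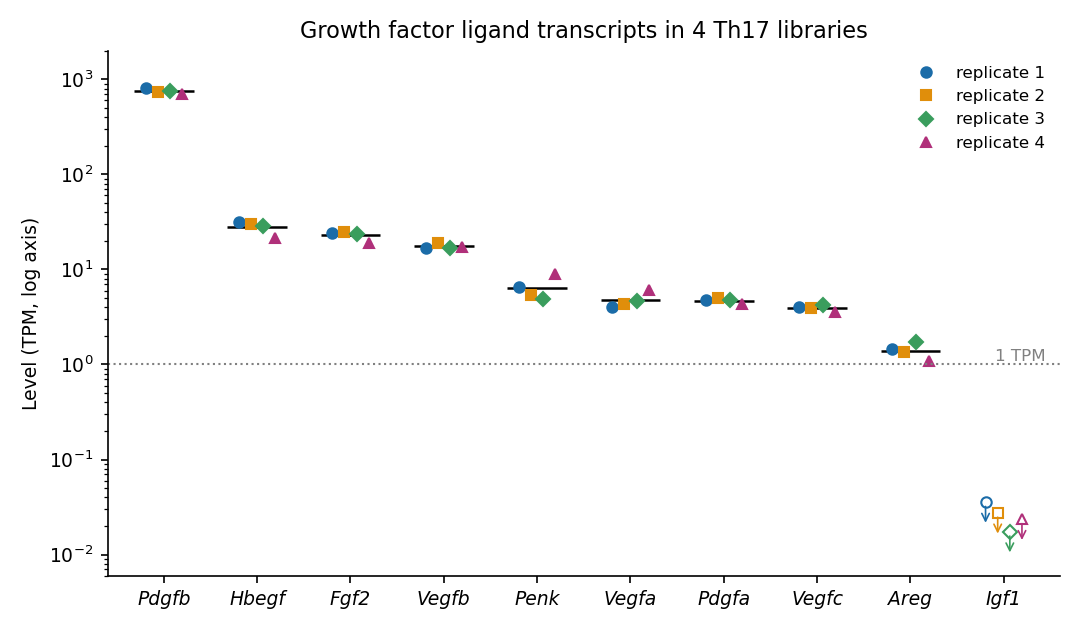
Level of each ligand transcript in TPM on a log axis, 1 symbol per library, with a bar at the mean of 4 libraries; open symbols with arrows give the level that 3 counts would have for Igf1, which had 0 counts. Pdgfb stands at 705.7 to 811.5 TPM, every other ligand stays at 31.8 TPM or less, and the dotted line marks 1 TPM.

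Among the platelet-derived growth factors, the B chain was abundant and the A chain scarce. Pdgfb (ENSMUSG00000000489.6, chr15:79995900-80014808, minus strand) was at 811.5, 732.6, 752.1 and 705.7 TPM in replicates 1 to 4, from 20209, 23682, 38377 and 26649 counts. All 4 libraries lay within 1.15-fold of each other, and the mean of 750.5 ± 44.9 TPM ranked 164th among the 21764 protein-coding genes. Pdgfa (ENSMUSG00000025856.15, chr5:138976014-138997370, minus strand), whose product binds PDGF receptor alpha, was at 4.81, 4.95, 4.73 and 4.29 TPM. It too was steady, at 4.69 ± 0.29 TPM, with rank 9013. The log2 ratio of Pdgfb over Pdgfa was 7.29 ± 0.08 (SD, n = 4), and over all counts the ratio of levels was 159 (95% exact interval 148 to 172, counting error only). Pdgfb was higher in 4 of 4 libraries. An antisense RNA, 6330403L08Rik, shares 26.1% of the exon bases of Pdgfa but had only 0.143 TPM, and counting was by strand.

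Such ratios between genes were tested by flipping signs over the libraries (an exact two-sided test), whose smallest possible p with 4 libraries is 0.12 when rounded. All 14 pairs of genes reached that smallest p, 0.12 before and after Benjamini-Hochberg adjustment, because each pair kept 1 order in all 4 libraries. None can pass 0.05 in this design, so the size and spread of each ratio are given. The log2 ratios use TPM + 0.1. Where a gene lies near or below that pseudocount, the ratio of levels over all counts, or its bound, is given instead. Intervals and limits from counts cover counting error only.

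The receptors of PDGF had very few counts. Pdgfrb, the receptor that PDGF-B binds most strongly, had 7, 3, 8 and 2 counts, or 0.150, 0.0494, 0.0835 and 0.0282 TPM. Pdgfra had 1 count, in replicate 4. Over all counts the level of Pdgfb was 10224 times that of Pdgfrb (95% exact interval 6619 to 16738), with Pdgfb higher in 4 of 4 libraries. Of the other PDGF ligands, Pdgfc averaged 1.04 ± 0.30 TPM and Pdgfd had 0 counts.

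Among the vascular endothelial growth factors, Vegfb was highest, and per exon length Vegfa and Vegfc were close together. Vegfb (ENSMUSG00000024962.13, chr19:6982473-6987651, minus strand), a ligand of FLT1 linked to fatty acid handling and heart vessels, was at 16.7, 19.0, 17.0 and 17.2 TPM. The spread was narrow, 17.5 ± 1.05 TPM, with replicate 2 highest. Vegfa (ENSMUSG00000023951.17, chr17:46016993-46032369, minus strand), the main driver of blood vessel growth, was at 4.02, 4.34, 4.60 and 6.06 TPM. Replicate 4 stood highest, and the mean was 4.76 ± 0.90 TPM. Vegfc (ENSMUSG00000031520.6, chr8:54077606-54187096, plus strand), the lymphatic growth factor, was at 4.02, 3.91, 4.27 and 3.57 TPM. The log2 ratio of Vegfa over Vegfb was -1.87 ± 0.27, so Vegfa was the lower in 4 of 4 libraries. Vegfb exceeded Vegfc by a log2 ratio of 2.12 ± 0.15. Vegfa over Vegfc had a log2 ratio of 0.25 ± 0.34, and the individual values ran from 0.00 in replicate 1 to 0.75 in replicate 4, so the excess was smaller than its spread. In CPM, counts scaled to the library total with no regard to length, Vegfa at 6.12 ± 1.19 CPM stood nearer to Vegfb at 8.42 ± 0.49 CPM than to Vegfc at 2.90 ± 0.21 CPM. There the log2 ratios were -0.47 for Vegfa over Vegfb, 1.04 for Vegfa over Vegfc and 1.51 for Vegfb over Vegfc. Against Pdgfb, Vegfa was lower by a log2 ratio of -7.29 ± 0.33.

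The signalling receptors of VEGF had few or no counts, while a co-receptor was present. Kdr, the main receptor of VEGF-A, and Flt4, that of VEGF-C, had 0 counts in every library, and Flt1 had 2 counts in all. Against a limit of 3 counts per library, Vegfa was at least 103-fold higher than Kdr in the library with the weakest limit. Nrp1, which encodes the co-receptor neuropilin 1, was at 7.29, 5.90, 7.41 and 5.46 TPM, and Nrp2 averaged 1.34 ± 0.26 TPM. Pgf, which encodes placental growth factor, another FLT1 ligand, averaged 1.96 ± 0.21 TPM.

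Of the EGF family, Hbegf was moderate and Areg barely above 1 TPM. Hbegf (ENSMUSG00000024486.5, chr18:36504929-36515805, minus strand), which encodes the membrane-anchored heparin-binding EGF-like growth factor, was at 31.8, 30.3, 29.0 and 21.7 TPM. Replicate 4 was lowest, below the 3 others, which lay close together. Areg (ENSMUSG00000029378.5, chr5:91139599-91148432, plus strand), which encodes the tissue repair factor amphiregulin, was at 1.45, 1.34, 1.74 and 1.08 TPM, from 15, 18, 37 and 17 counts. Its counting error, 10.7% on the total count, was the largest of the ligands with counts. Areg was lower than Hbegf in each of the 4 libraries; the log2 ratio was -4.24 ± 0.19 in TPM and -5.04 in CPM.

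Receptors and partners of the EGF family were unevenly present. Egfr, the receptor of both ligands, was at 0.755, 0.574, 0.545 and 0.566 TPM, and over all counts the level of Hbegf was 47.0 times that of Egfr (95% exact interval 42.0 to 52.7). In CPM, without length, the log2 ratio was 3.21, against 5.31 ± 0.23 in TPM. Erbb3, a receptor with an impaired kinase that pairs with other family members, averaged 7.15 ± 0.65 TPM, while Erbb4 had 0 counts and Erbb2 averaged 0.174 ± 0.099 TPM. Cd9, which encodes a tetraspanin that associates with the HB-EGF precursor, averaged 35.1 ± 0.92 TPM. Of the other EGF family ligands none was detected. Egf averaged 0.318 ± 0.063 TPM and Tgfa 0.0200 ± 0.0236 TPM.

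Fgf2 was detected and Igf1 was not. Fgf2 (ENSMUSG00000037225.13, chr3:37348346-37410108, plus strand), which encodes basic fibroblast growth factor, a ligand exported without a signal peptide, was at 24.2, 24.5, 23.7 and 18.9 TPM. As with Hbegf, replicate 4 was lowest. The gene Nudt6 lies antisense over 640 exon bases, 9.44% of those of Fgf2, and averaged 9.96 ± 0.94 TPM on its own strand. On the same strand, Gm43439 overlaps 255 bases of Fgf2 exons, and fragments there would be left uncounted for both genes. Igf1 (ENSMUSG00000020053.18, chr10:87858265-87937042, plus strand), the growth hormone dependent growth factor that liver and many macrophages make, had 0 counts in all 4 libraries. A limit of 3 counts per library allows up to 0.0173 to 0.0355 TPM. Fgf2 was at least 682-fold higher than Igf1 in the library with the weakest limit.

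The FGF receptors were low and the receptors of the insulin family were present. Fgfr1 was at 0.0949, 0.0731, 0.0753 and 0.180 TPM, from 8, 8, 13 and 23 counts. Over all counts the level of Fgf2 was 216 times that of Fgfr1 (95% exact interval 165 to 290). Fgfr3 was the highest of its family at 0.278 ± 0.108 TPM and Fgfr4 had 0 counts. In contrast, Igf1r was at 6.73, 6.37, 6.15 and 6.35 TPM, and Insr, the insulin receptor, averaged 7.30 ± 0.45 TPM. Igf1r was at least 190-fold higher than Igf1. Igf2r, the mannose 6-phosphate receptor that clears IGF-II, was the highest of the 24 receptor genes at 59.4 ± 1.97 TPM, while the ligand gene Igf2 averaged 0.0123 ± 0.0086 TPM. Of 8 genes for IGF-binding proteins, which hold IGFs outside cells, 2 were detected, Igfbp4 at 209.7 ± 10.3 TPM and Igfbp7 at 31.9 ± 1.38 TPM. Igfbp2 was at 0.0314 ± 0.0628 TPM, Igfbp6 at 0.0790 ± 0.158 TPM, each from 1 library only, and the other 4 had 0 counts.

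Penk, the precursor whose enkephalin units are shown above, was low and the least even of the ligands with counts. Penk (ENSMUSG00000045573.9, chr4:4133531-4138819, minus strand) was at 6.60, 5.36, 4.90 and 8.94 TPM, from 92, 97, 140 and 189 counts. Replicate 4 was highest and replicate 3 lowest, a 1.82-fold range, and the mean was 6.45 ± 1.81 TPM. Penk exceeded Areg by a log2 ratio of 2.10 ± 0.62. The enkephalin receptor gene Oprd1 had 0 counts, so Penk was at least 75.5-fold higher against a limit of 3 counts, and Oprm1, the mu opioid receptor gene, had 5 counts in all. Of the other opioid precursor genes, Pdyn and Pnoc had 0 counts and Pomc averaged 1.29 ± 0.41 TPM.

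**Figure D2:**
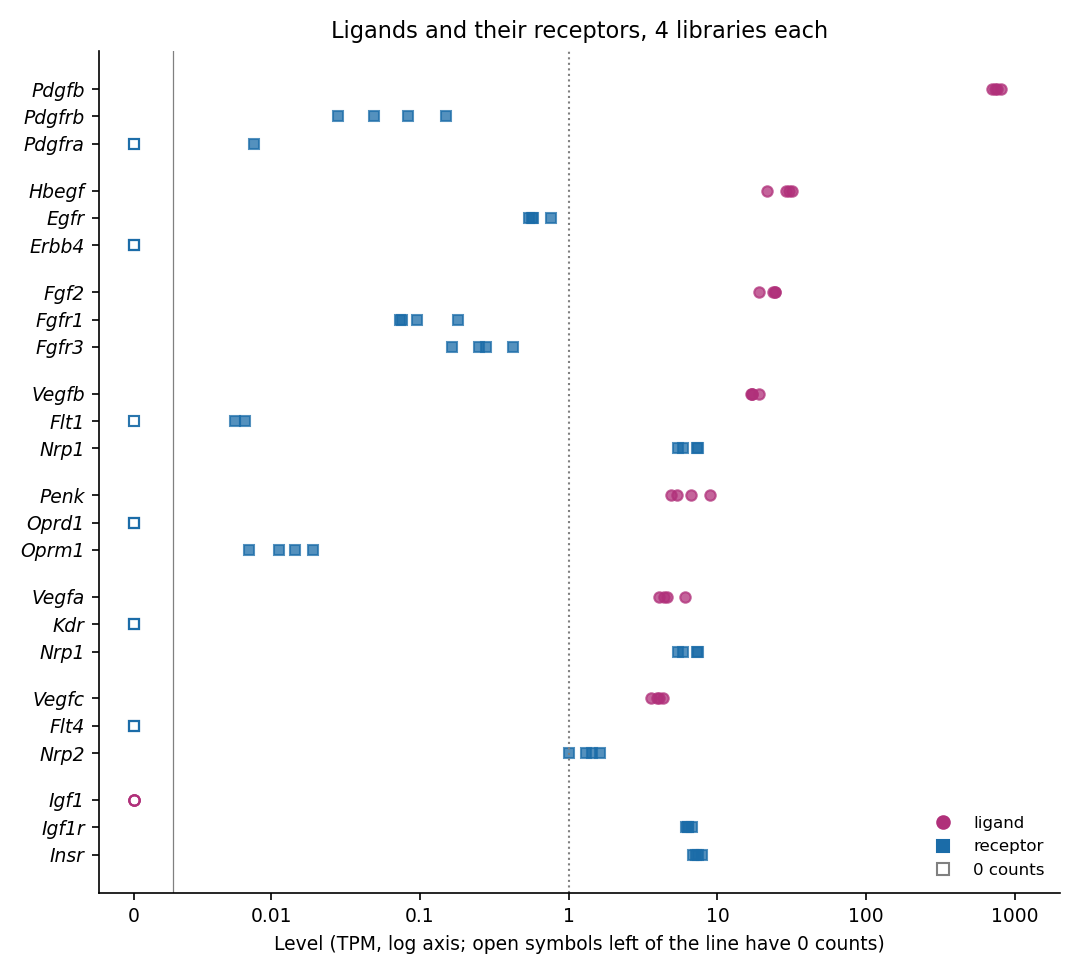
Levels of 8 ligands (circles) and of receptors or co-receptors for each (squares) in TPM on a log axis, 1 symbol per library; open symbols at the left edge have 0 counts. Pdgfb, Hbegf, Fgf2, Vegfb, Penk and Vegfc stand right of both receptors drawn under them, Nrp1 lies at 5.46 to 7.41 TPM, and Igf1 alone stands left of its receptors.

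The order of the ligands was nearly the same in every library. From high to low the means ran Pdgfb, Hbegf, Fgf2, Vegfb, Penk, Vegfa, Pdgfa, Vegfc, Areg and Igf1, and 44 of the 45 possible pairs kept 1 order in all 4 libraries. The exception was Vegfa and Pdgfa, with a log2 ratio of 0.00 ± 0.34, Vegfa being higher in replicate 4 only. Ranges over the libraries overlapped between neighbours Hbegf and Fgf2, Fgf2 and Vegfb, Penk and Vegfa, and Vegfa and Pdgfa. They did not overlap between Pdgfb and Hbegf, Vegfb and Penk, Pdgfa and Vegfc, Vegfc and Areg, or Areg and Igf1. Part of this order depends on exon length. In CPM, Fgf2 at 46.5 ± 5.19 CPM stood above Hbegf at 20.1 ± 3.14 CPM, and Vegfa at 6.12 ± 1.19 CPM and Pdgfa at 4.39 ± 0.25 CPM stood above Penk at 3.16 ± 0.90 CPM.

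**Figure D3:**
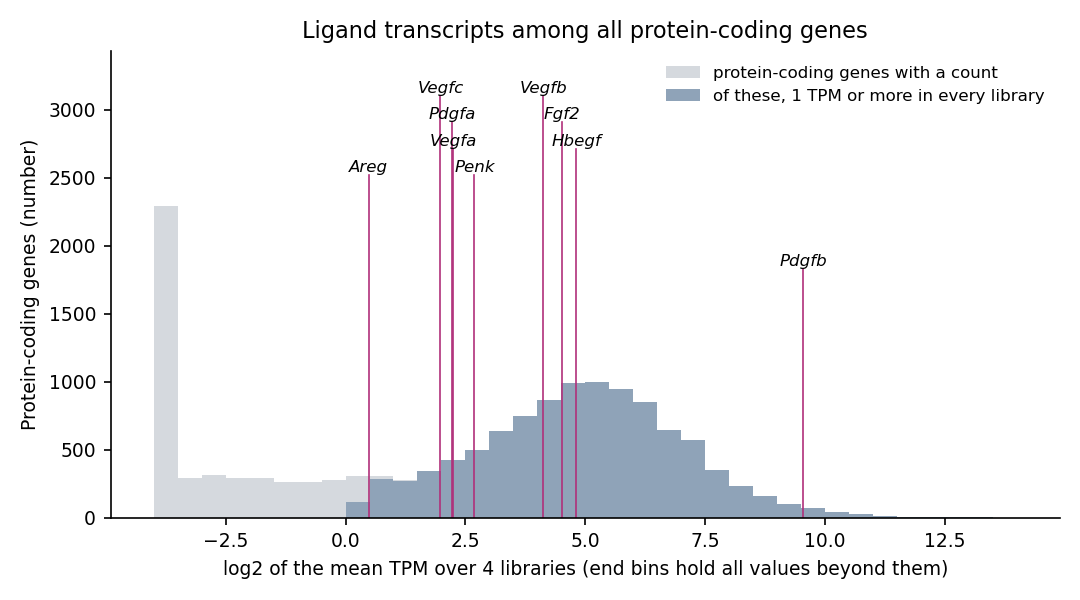
Number of protein-coding genes (vertical axis) by log2 of the mean TPM (horizontal axis), for genes with a count and for those at 1 TPM or more in every library, with lines at the 9 ligands that had counts. Pdgfb lies above 98.4% of the detected genes, Hbegf above 47.1% and Areg above 1.11%.

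The 9 ligands with counts spread differently over the libraries, and replicate 4 was the highest or the lowest library for 8 of them, against 50.3% of detected protein-coding genes. It was the highest library for Penk and Vegfa and the lowest for Hbegf, Fgf2, Pdgfb, Pdgfa, Vegfc and Areg. For Vegfb it lay between the others. The coefficient of variation was 5.98% for Pdgfb and for Vegfb, 6.10% for Pdgfa, 7.45% for Vegfc and 11.5% for Fgf2. It was 16.0% for Hbegf, 19.0% for Vegfa, 19.5% for Areg and 28.04% for Penk. Areg had only 15, 18, 37 and 17 counts, and the Poisson test described below did not call it (adjusted p 0.513). In replicate 4 the summed markers of other cell types were 7.41 TPM for macrophages, 0.425 TPM for platelets, 6.60 TPM for stromal and endothelial cells, 0.0286 TPM for mast cells and 2.97 TPM for innate lymphoid cells. Only the platelet sum lay outside the range of the other libraries, as the lowest. In replicate 4, Cd68 made up 6.02 TPM of the macrophage sum and Pecam1 6.34 TPM of the stromal and endothelial sum. Among macrophage markers, Adgre1, Mrc1 and Cd14 were highest in replicate 4, at 0.167, 0.315 and 0.590 TPM, while Cd68 and Csf1r were lowest there.

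Whether a gene differed between libraries beyond counting noise was tested across 12434 genes that passed edgeR's low-count filter, with Benjamini-Hochberg adjustment over all of them. A test allowing for Poisson noise only, called at adjusted p under 0.05 with a ratio of highest to lowest CPM of at least 2, called 1.74% of the genes and 0 of the 9 ligands tested. Without the ratio it called 36.6% of the genes and 5 of the 9 ligands, Pdgfb, Hbegf, Fgf2, Penk and Vegfa. Once replicate 4 was left out, it called 3186 of 12482 genes and, among the ligands, Pdgfb only. With replicate 3 left out instead, it called 3259 of 12462 genes and 5 of the 9 ligands. A negative binomial test, which also allows for the spread usual at that level, called 0.523% of the genes and 1 of the 9 ligands. That was Hbegf, with an adjusted p of 0.0281 and a highest over lowest CPM of 1.44. The call did not hold in most other settings: the adjusted p was 0.184 with no filter, 0.105 with DESeq2's fitted dispersion, and between 0.0755 and 1.00 with 1 replicate left out. With DESeq2's size factors alone it was 0.0259. Without genes of the X and Y chromosomes it was 0.0173, and Fgf2 was also called, at 0.0194. By the same test over all genes the adjusted p was 0.245 for Penk, with a ratio of 1.82, 0.652 for Vegfa, with a ratio of 1.53, and 0.661 for Fgf2, with a ratio of 1.28.

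**Figure D4:**
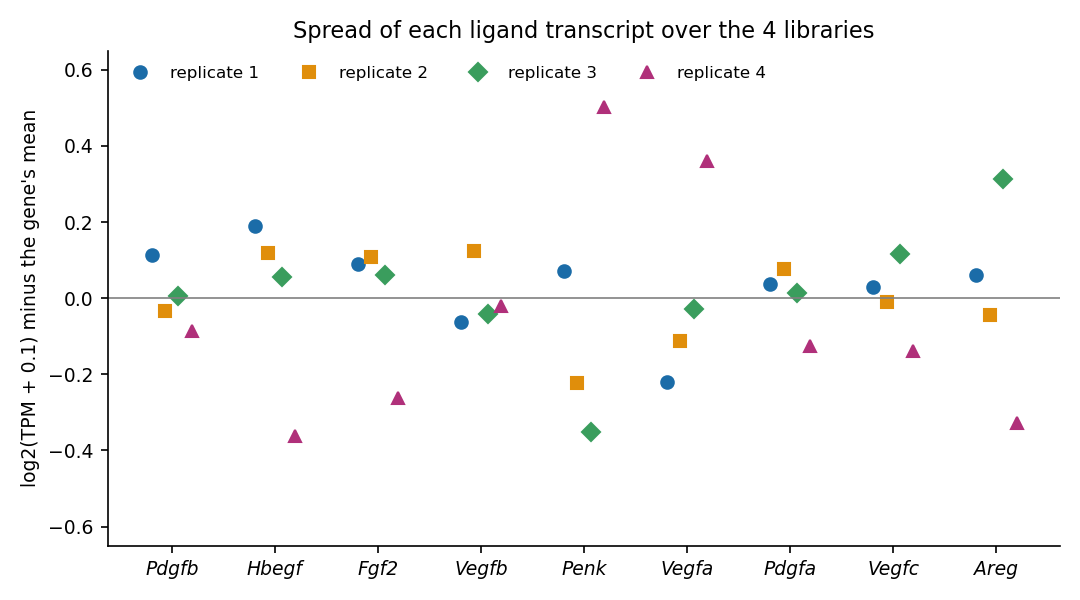
Difference of log2(TPM + 0.1) from the gene's own mean (vertical axis) for the 9 ligands with counts (horizontal axis), 1 symbol per library. The triangles of replicate 4 lie at 0.50 for Penk and 0.36 for Vegfa and at -0.36 for Hbegf, -0.26 for Fgf2 and -0.33 for Areg.

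The wider families and receptors of these ligands were mostly below 1 TPM. Of 24 receptor genes 7 were detected and 6 had 0 counts, with a median of 0.140 TPM. By level these were led by Igf2r and Cd9, followed by Insr and Erbb3. Fgfr3 was the only receptor gene called by the Poisson test with the ratio, out of 11 tested, and was not called by the negative binomial test. Of 38 other ligands of the same families 3 were detected and 15 had 0 counts, with a median of 0.0108 TPM. Fgf16, a secreted factor known from heart, was at 19.7, 16.0, 21.03 and 18.04 TPM, near Vegfb. Fgf13, which encodes an intracellular partner of sodium channels and not a secreted ligand, averaged 6.22 ± 0.70 TPM, ahead of Pgf and Pomc. Of the 6 tested, none was called by the Poisson test with the ratio (1.74% of all genes tested) or the negative binomial test (0.523%). Without the ratio, the Poisson test called Fgf16 (adjusted p 0.00415) and Pdgfc (adjusted p 0.00234), against 36.6% of all genes tested.

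Proteases that process these precursors were uneven in level. Of 20 genes for processing and release 12 were detected, with a median of 2.19 TPM. Furin, the protease whose motif is marked in both PDGF stretches, was at 734.6, 691.8, 709.2 and 688.1 TPM, a level near that of Pdgfb. Adam10 averaged 167.7 ± 7.91 TPM and Adam17, the main sheddase of HB-EGF and amphiregulin, 44.6 ± 0.72 TPM, followed by Adam9 at 34.5 ± 2.05 TPM. The neuroendocrine enzymes that cut proenkephalin at its basic pairs were near 0: Pcsk1 averaged 0.0712 ± 0.0373 TPM, Pcsk2 had 0 counts, and Cpe, the carboxypeptidase that trims the peptides, averaged 0.0814 ± 0.0831 TPM. Of the pair that activates VEGF-C, the protease gene Adamts3 averaged 1.96 ± 0.08 TPM and Ccbe1, its cofactor, had 0 counts.

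Genes that, like Vegfa, are known targets of the hypoxia-inducible factor HIF-1 were largely expressed. Of 21 such genes 18 were detected, against 47.0% of protein-coding genes. Their median was 24.99 TPM, against 0.575 TPM for all protein-coding genes and 31.3 TPM for the detected ones. Ldha, which encodes the enzyme that makes lactate, averaged 3203 ± 96.9 TPM, Egln3, which encodes a prolyl hydroxylase that marks HIF for degradation, 557.4 ± 26.6 TPM, Pgk1, a glycolytic enzyme gene, 524.2 ± 21.4 TPM, and Ddit4, which encodes an inhibitor of mTORC1, 220.9 ± 16.1 TPM. Vegfa at 4.76 TPM lay far below the list's median of 24.99 TPM. The Poisson test with the ratio and the negative binomial test called none of the 20 tested, against 1.74% and 0.523% of all genes tested. Without the ratio, the Poisson test called several of them, Ldha, Egln3, Pgk1 and Ddit4 included, against 36.6% of all genes tested. Adm, which encodes the vessel-dilating peptide adrenomedullin, had counts in replicate 4 only.

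**Figure D5:**
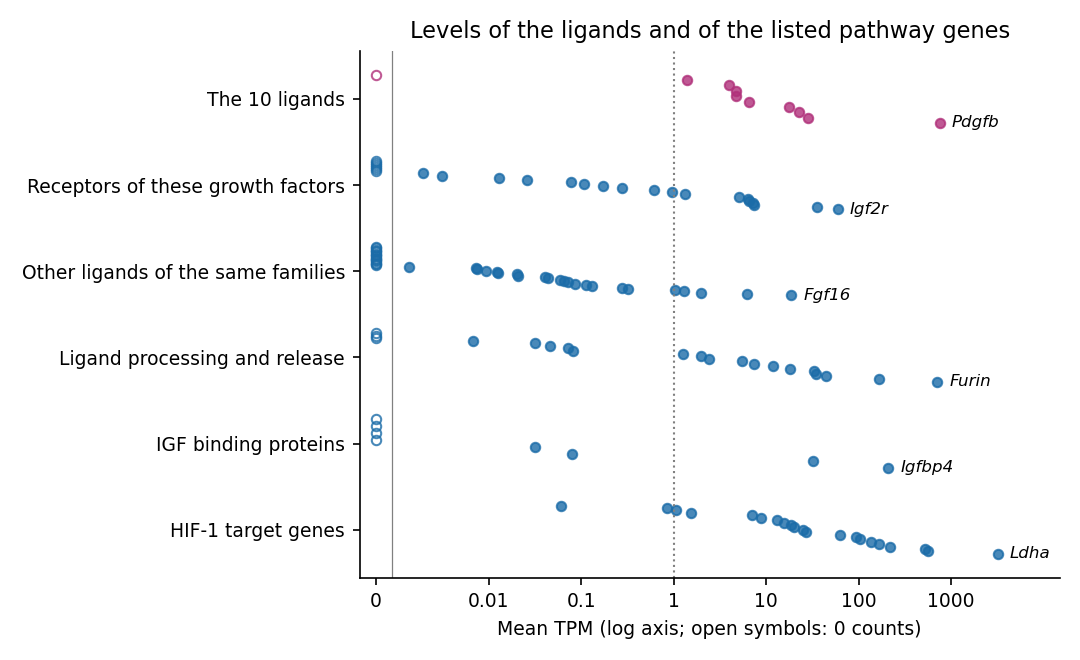
Mean TPM over 4 libraries on a log axis for each of the 10 ligands and for each gene of 5 pathway lists, with the highest gene of each row named; open symbols at the left edge have 0 counts. The receptor and family rows lie mostly left of 1 TPM, and 7 of 24 and 3 of 38 of their genes were detected. Of the HIF-1 target genes 18 of 21 were detected, against 47.0% of all protein-coding genes.

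Markers of other cell types that make these ligands mostly averaged below 1 TPM. Of 8 platelet and megakaryocyte genes 0 were detected, and Pf4 and Ppbp, which define platelets, a rich source of PDGF-B, had 0 counts. Their sum was between 0.425 and 0.560 TPM per library, led by Itga2b. Of 8 macrophage genes only Cd68 was detected, at 6.46 ± 0.57 TPM, and Lyz2 and Fcgr1 had 0 counts. The macrophage sum ran from 7.31 to 8.71 TPM and was 7.41 TPM in replicate 4. Csf1r, at 0.839, 0.702, 0.492 and 0.285 TPM, was called by the Poisson test with the ratio and not by the negative binomial test. Of 10 stromal and endothelial genes only Pecam1 was detected, at 6.27 ± 0.30 TPM, in a sum of 6.05 to 6.92 TPM, with Col3a1, Cdh5 and Kdr at 0 counts. Of 8 mast cell and basophil genes 0 were detected and 6 had 0 counts, in a sum of at most 0.118 TPM. Of 6 genes of group 2 innate lymphoid cells, a source of amphiregulin, only Gata3 was detected, at 2.34 ± 0.39 TPM, in a sum of 2.81 to 4.80 TPM. Il13, of the same list, was at 1.46 TPM in replicate 1 and below 1 TPM in replicates 2 to 4. Of the ligands with counts, Vegfa, Pdgfa, Vegfc and Areg lay below the macrophage sum in every library. Areg lay below the innate lymphoid sum too. The part of any such cells in the ligand levels was not tested.

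For the 3 highest ligands, the protein-coding genes with the most similar level in all 4 libraries were sought by the root mean square difference of log2(TPM + 0.1). Nearest to Pdgfb were Rpl37a, a ribosomal protein gene, with a difference of 0.027, Ipo5, which encodes a nuclear import receptor, with 0.050, and Ndfip1, an adaptor of ubiquitin ligases, with 0.060. Nearest to Hbegf were Cyp11a1, which encodes the first enzyme of steroid synthesis, at 0.094, Fbxo30 at 0.10 and Tnfrsf26 at 0.11. Nearest to Fgf2 were Spsb1 at 0.036, Endod1 at 0.047 and Mtss1 at 0.069. Since these genes were picked for this likeness, libraries that are high or low in both were fixed by the choice.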

How the data were processed

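RNA of 4 libraries of mouse Th17 cells was sequenced. The labels call the assay total RNA-seq but link a protocol for poly(A) RNA libraries. Per the file headers, the authors deposited raw counts of read pairs per gene from featureCounts 1.4.6-p4 with GENCODE M13 models, using both mapped ends and strand option 2 (reverse), and leaving out multi-mapping fragments and those shared by overlapping genes. The deposited exon length per gene, in bases, was the second value used. The labels name mm10. For the aligner, nothing is given in the sources used here.

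Gene symbols and coding sequences came from GENCODE M21, by gene ID. All 10 ligands matched, 8 with the same version. TPM was computed from counts and length. As length covers all exons of a gene, TPM understates a gene expressed from a short isoform. A pseudocount of 0.1 TPM was used on the log2 scale, and a limit of 3 counts for a gene at 0. Pairs of genes were tested by exact sign-flip tests. Differences between libraries were tested in edgeR 4.0.16 (R 4.3.3) with TMM scaling, by Poisson and negative binomial deviance, with DESeq2 1.42.0 size factors and dispersion as alternatives. Python 3.11.15 with SciPy 1.17.1 was used otherwise. Total counts of 28555677 to 58104663 put 3 counts at 0.0516 to 0.105 CPM. Named genes are all ligands, the 4 highest genes of each pathway list (marker lists are given by counts, sums and the genes that stand out), list members called variable, receptors in a tested pair and the 3 genes nearest to each of the 3 highest ligands. Other listed genes were named after their values were seen. The ligands and lists were chosen with earlier results of these data known.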

Additional observations from a re-analysis of the deposited data

Results flagged for a closer look

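Among 39 genes examined for a library far from the other 3, 4 were picked out, where chance picks out about 1 in 20. Fgf2 in replicate 4, at 18.94 TPM, stood apart below 23.7 to 24.5 TPM in the other libraries. Spsb1 at 19.79 TPM and Endod1 at 20.21 TPM, also in replicate 4, stood apart in the same direction, but both were picked for their likeness to Fgf2 and add no separate evidence. Egfr in replicate 1, at 0.7552 TPM, stood above 0.545 to 0.574 TPM in the other libraries. Its counts were 73, 72, 108 and 83, and the Poisson test did not call it (adjusted p 0.314). With Spsb1 and Endod1 set aside, Fgf2 and Egfr are left, near the number that 1 in 20 of 39 genes gives.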

How the results depend on the processing

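The 14 ratios between genes kept their direction in all 84 alternatives, but not their size. None of the 56 with 1 replicate left out moved by over 1.5 times, while 8 of 14 did with CPM in place of TPM and 8 of 14 with a pseudocount of 1. In CPM the log2 ratio was -0.47 for Vegfa over Vegfb, against -1.87, and 3.21 for Hbegf over Egfr, against 5.31. A pseudocount of 1 gave 9.45 for Pdgfb over Pdgfrb, against 12.09, 4.42 for Fgf2 over Fgfr1, against 6.82, 4.17 for Hbegf over Egfr, and -3.60 for Areg over Hbegf. Every other such move had a gene at 0 counts in the pair or is given with the VEGF and EGF ligands. Leaving mitochondrial genes out of the TPM sum raised levels by a factor of 1.02 to 1.03. Ranks in CPM changed by less than 1.5 times, for Hbegf to 6992 from 5414, for Vegfb to 8542 from 6685 and for Fgf2 to 4742 from 6004. At 5 TPM, 4 ligands were detected. Counts of variable genes moved more. With the Poisson test and the ratio, 216 genes were called, 1097 with no filter and 141 to 156 with 1 replicate left out, the lowest without replicate 4. With no ratio asked, 4550 were called, 5 of them ligands. With the negative binomial test, 65 genes were called (557 at an unadjusted p under 0.05), 113 with no filter and 32 to 49 with 1 replicate left out, 35 without replicate 1 and 32 without replicate 4. The ligands called were 1 with this test and 1 with DESeq2's size factors alone. They were 0 with no filter, with DESeq2's fitted dispersion and with any replicate left out. Without genes of the X and Y chromosomes, an alternative chosen after seeing the data, they were 2. The cause of these changes was not tested. No paired analysis was possible because the libraries form a single group. Depth limits every gene with few counts, such as Areg among the ligands, and genes at 0 counts are bounded only by 3 counts per library.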
